A study of Homo sapiens and Mus musculus with 18 samples.

Results

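Human RA-gastruloids were compared between an early stage, sampled 24 h after aggregation, and a late stage, sampled at 120 h, to describe which progenitor programmes were lost and which lineages were gained. All genes with enough counts in the 4 libraries of these stages were used, 14966 of the 44910 genes in the human count table, and the 4 libraries were part of a series of 18. Gastruloids are aggregates of embryonic stem cells (ESCs) that, after a pulse of WNT activation, elongate and form derivatives of the germ layers. Both stages came from RUES2-GLR, a single human ESC line with reporters, of which the primed ESCs (n = 2) are given below as a reference for levels. The ESCs were treated with the GSK3 inhibitor CHIR99021 (CHIR), then with CHIR and retinoic acid (RA), dissociated and aggregated in medium with CHIR and the ROCK inhibitor Y-27632, which later additions and changes of medium without them diluted, and Matrigel and further RA were added after the early sampling. Between the stages age, Matrigel, the second exposure to RA and the dilution of CHIR and Y-27632 therefore cannot be told apart. Each replicate held many gastruloids. Per the study's methods, the replicates of a stage shared a batch, and its reporting summary places all gastruloid samples in 1 batch.

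In the embryo, the caudal end holds progenitors that express TBXT and are maintained by WNT and FGF. They feed presomitic mesoderm, in which a Notch and WNT driven clock sets the pace of somite formation, and the caudal neural plate. RA, made by somites, opposes FGF and favours neural and somitic differentiation, and the neural tube is patterned by WNT and BMP from its dorsal side and by hedgehog from the ventral side. These are background to the gene lists that follow.

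The early libraries held 9984573 and 9499295 counts in genes, and the late libraries 19474515 and 8777081. Levels are given in CPM (counts scaled to a common library total) on library sizes scaled by TMM (trimmed mean of M values). A count of 3 in a library is taken as the limit of detection. It was worth 0.296 CPM on average at the early stage and 0.226 at the late one, and it covers counting error only. Late RA-gastruloids differed strongly from early ones. By edgeR's quasi-likelihood test, 1953 genes (13.0% of those tested) were higher and 1962 (13.1%) lower in late RA-gastruloids, at a Benjamini-Hochberg adjusted p under 0.05 and a change of more than 1 on the log2 scale (differentially expressed transcripts, DETs). The median change of all genes was 0.05 on the log2 scale. Falls were the larger ones, with a median size of 2.00 against 1.66 for the rises, and 564 genes fell by more than 8-fold against 319 that rose by as much. Of the higher DETs 402 were long non-coding RNAs, against 166 of the lower DETs. The share of such RNAs among all tested genes is not given here, so neither count is set against a background. The distance between the stages over all genes tested was 162 log2 units, against 41.8 between the early and 44.7 between the late replicates. Without the filter on low counts these distances were 190 between stages, 146 between early and 92.6 between late replicates. For 77.8% of genes the libraries of the stages did not overlap, so that a lack of overlap alone sets no gene apart.

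The late replicates were less alike than the early ones, and their differences followed base composition. Among genes with at least 10 CPM, the log2 ratio of replicate 2 over replicate 1 had an SD of 0.131 in early and 0.280 in late RA-gastruloids. Across 9502 genes, this ratio correlated with the GC content of the gene's longest transcript with Pearson's r = -0.81 in the late pair, against 0.06 across 9410 genes in the early pair. These correlations are across genes of 1 pair of libraries, and genes are not independent replicates. In late replicate 2, the genes of lowest GC content (up to 41.1%) were higher by a median of 0.23 on the log2 scale, and those of highest GC content (from 55.3%) were lower by 0.36. The late libraries also differed in depth and may differ in read length, which the sources do not give per library. Genes that differed most within the late pair were the nuclear RNA MALAT1 (7.81 and 17.6 CPM), the hormone gene AMH (15.9 and 7.85), the ubiquitin ligase PELI3 (14.8 and 7.44), the p53 targets BBC3 (16.8 and 8.66), ZMAT3 (8.87 and 17.0) and PIDD1 (24.1 and 13.0), TRMT61A (20.8 and 11.1), RBM27 (16.3 and 30.2), CEBPZOS (9.36 and 17.1) and LENG8 (56.4 and 31.2). Within the early pair they were XACT, a long non-coding RNA of the X chromosome (16.7 and 5.45 CPM), C1orf56, the proliferation marker MKI67 (68.1 and 112), BOC, VKORC1, MEPCE, LRRC8B, HOXD4, PACC1 and ZSCAN18. Of these 20 genes, MALAT1, MEPCE, VKORC1, RBM27, ZSCAN18 and C1orf56 share between 23.8% and 81.6% of their exonic bases with other genes. With the GC trend of each library removed by offsets, an alternative chosen after seeing the data, 1935 genes were higher and 1977 lower, of which 1881 and 1917 were DETs in the same direction without the offsets.

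**Figure D1:**
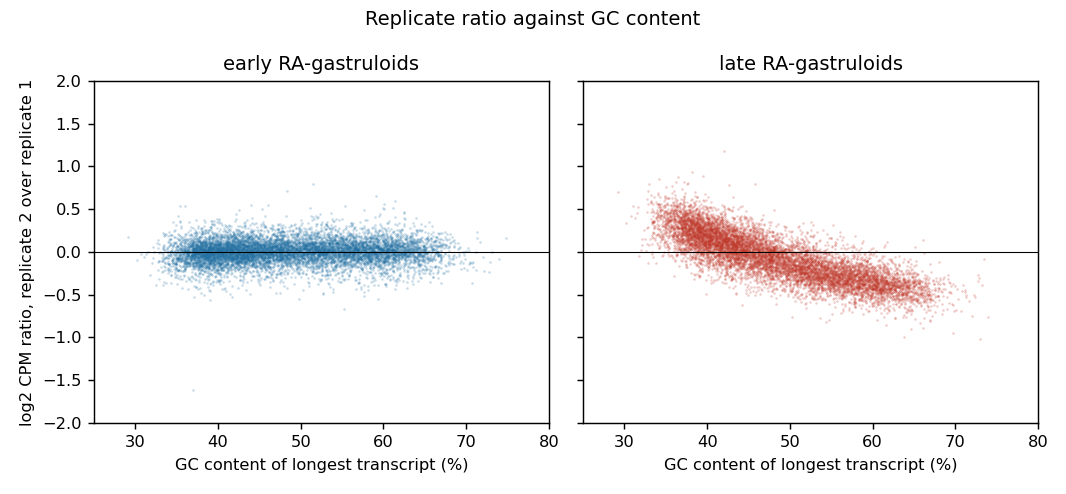
Log2 ratio of CPM between replicates of a stage (y axis, replicate 2 over replicate 1) against the GC content of each gene's longest transcript in percent (x axis); each point is a gene with at least 10 CPM, with 9410 genes in the early and 9502 in the late panel. The early points lie flat around 0 (r = 0.06), whereas the late points slope down with GC content (r = -0.81).

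Most tested genes of pluripotency fell. Of 19 tested members of the pluripotency list, 14 fell and 2 rose, with a median of -2.94 on the log2 scale (-2.92 with the 4 genes that had no count in 1 stage set at their bound). POU5F1 (ENSG00000204531, chr6:31164337-31180731, GRCh38), the central pluripotency factor, had 257 and 242 CPM early and 0.388 and 0.612 CPM late. It had been at 613 CPM (mean of 2) in the primed RUES2-GLR ESCs, so early RA-gastruloids still held a sizeable level of it and late ones next to none (log2 change -9.05 ± 0.19 SE, edgeR adjusted p = 2.4e-26). LIN28A, an RNA-binding protein that blocks let-7 maturation, fell from 716 and 705 to 147 and 147 CPM, whereas its paralogue LIN28B stood at 208 and 214 and at 167 and 214 CPM and was not called. CDH1, the epithelial cadherin, had 17.3 and 17.4 CPM early and 0.097 and 0.102 CPM late, a ratio of 176 with a counting interval of 59.7 to 857. LEFTY2, a NODAL antagonist, fell by 3.67. SOX2, which serves pluripotent cells and neural progenitors alike, went the other way, from 90.4 and 95.0 to 325 and 318 CPM, still under the 1285 CPM of the ESCs. FOXD3, known from both pluripotent cells and neural crest, was at 0 in both early libraries and at 14.8 and 14.7 CPM in the late ones, at least 49.9-fold higher, with 24.1% of its exonic bases shared with its antisense gene. NANOG, UTF1, LEFTY1 and DPPA2 were too low to be tested, with NANOG at 0.384 and 0.101 CPM early and 0 in both late libraries. Among the 10 largest falls of genes with more than 3 counts in a late library were also 2 long non-coding RNAs known from human pluripotent cells, of which ESRG had 49.9 and 56.0 CPM early against 0.194 and 0 late, and LINC00458 had 57.5 and 63.2 against 0.291 and 0.102.

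Primitive streak and caudal progenitor genes fell together. Of 24 tested members 21 fell and 1 rose, with a median of -3.68, and their summed level dropped from 5586 and 5698 CPM to 657 and 578 CPM. TBXT (chr6:166157656-166168700), the T-box factor of the streak and notochord, had 124 and 128 CPM early and 1.75 and 0.510 CPM late (-6.57 ± 0.22 SE, edgeR adjusted p = 1.4e-21). The ligand WNT8A (chr5:138083990-138092365) fell from 621 and 674 to 1.26 and 1.02 CPM. APLNR, the apelin receptor of nascent mesoderm, fell from 2022 and 2016 to 25.8 and 22.6 CPM. FOXH1, a SMAD partner downstream of NODAL, fell from 92.1 and 96.1 CPM to 0.242 and 0, although 39% of its exonic bases overlap other genes, where reads were not assigned. FGF4 had 106 and 105 CPM early and 0 and 0.102 late. The caudal ligands FGF17 (298 and 316 to 2.38 and 1.73 CPM) and FGF8 (87.6 and 87.8 to 2.91 and 3.26) fell as well, and so did CDX2, a caudal homeobox factor, from 254 and 261 to 24.8 and 24.6. CDX1 fell less, from 249 and 244 to 111 and 86.9 CPM. WNT3A, a ligand of the tail bud, stood at 145 and 140 CPM early and 93.6 and 69.4 late and was not called. CYP26A1, which degrades RA, was the member that rose, from 12.6 and 11.6 to 41.9 and 24.7 CPM.

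Most tested genes of the list of presomitic mesoderm and its clock fell, and most of those of formed somites rose. In the presomitic list 8 of 14 tested genes fell and 2 rose (median -3.06). MSGN1 (chr2:17816460-17817798), a bHLH factor of presomitic mesoderm, had 271 and 282 CPM early and 0.533 and 0.510 late. TBX6 (chr16:30085793-30091924), which directs caudal progenitors to paraxial mesoderm, had 357 and 385 CPM early and 1.70 and 0.612 late (-8.12 ± 0.19 SE, edgeR adjusted p = 3.1e-25). Of the clock genes, the repressor HES7 fell from 121 and 125 to 3.98 and 3.67 CPM, and the Notch ligand DLL3 from 596 and 597 to 37.2 and 27.0. LFNG, which glycosylates Notch, stood at 155 and 174 and at 124 and 90.7 CPM and was not called. The 2 that rose were HES1, a general Notch target, from 30.7 and 30.9 to 68.5 and 66.4 CPM, and RIPPLY1, which ends TBX6 activity as somites form, from 0 in both early libraries to 10.3 and 9.07 CPM, at least 32.8-fold. RIPPLY1 shares 28.5% of its exonic bases with CLDN2, which was switched on as well (11.1 and 10.8 CPM late), and strand was not used.

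In the list of somite, sclerotome and dermomyotome 11 of 14 tested genes rose and none fell, with a median of 3.59, the highest of the 24 lists. MEOX1 (chr17:43640389-43661922), a homeobox factor of early somites, had 0.192 and 0.101 CPM early and 92.7 and 72.0 CPM late, a ratio of 582 with a counting interval of 199 to 2826. TCF15, a bHLH factor that makes somites epithelial, rose from 7.49 and 6.06 to 51.1 and 39.6 CPM (2.75 ± 0.18 SE, edgeR adjusted p = 2.8e-14). PAX3, of dermomyotome and dorsal neural tube, rose from 18.2 and 21.8 to 259 and 249 CPM. UNCX, a marker of the caudal part of a somite, had 0.0961 and 0 CPM early and 16.3 and 11.3 late, and MEOX2 0.192 and 0 against 19.6 and 21.3. The early libraries were thus at or near the limit of 3 counts for MEOX1, MEOX2 and UNCX. The sclerotome genes PAX1 and PAX9 stood below 1.1 CPM in all 4 libraries, and NKX3-2 below 3 CPM.

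Of skeletal muscle genes 7 of 15 were tested, of which 4 rose and 3 fell (median 2.91, or 2.42 with MYOG at its bound). MYF6, a myogenic regulator, had 0.192 and 0 CPM early and 17.1 and 19.1 late, and CDH15, the cadherin of muscle precursors, 0.384 and 0.101 against 34.3 and 27.0. MYOG was at 0 early and at 2.04 and 1.12 CPM late, at least 5.34-fold higher. MYF5 reached 0.485 and 0.510 CPM late, and MYOD1 0.0485 and 0. Of contractile and structural genes, DES fell from 31.9 and 32.7 to 0.242 and 0.510 CPM and the slow troponin TNNT1 from 122 and 119 to 13.1 and 8.56. The myosin MYH3 stayed below 0.8 CPM in all 4 libraries.

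Of 23 tested neural tube progenitor genes 18 rose and 2 fell (median 2.76). OLIG3 (chr6:137492199-137494394), a bHLH factor of dorsal progenitors, had 0.0961 and 0 CPM early and 213 and 187 CPM late, that is, 1 count in early libraries. PAX6 (chr11:31784779-31817961), a homeobox factor of neural progenitors, had 0.192 and 0.303 CPM early and 102 and 98.7 CPM late (8.62 ± 0.28 SE, edgeR adjusted p = 7.1e-22). Of the exonic bases of PAX6, 26.3% overlap other genes, where reads were not assigned. SOX1, which marks neural commitment, had 0.192 and 0 CPM early and 32.1 and 35.7 late. LMX1A, a factor known from the roof plate, rose from 0.384 and 0 to 17.6 and 15.4 CPM, GDF7, a BMP ligand known from the same place, from 0.288 and 0.202 to 17.3 and 14.3, and, outside the list, the ligand WNT1 from 0.480 and 0.202 to 75.8 and 61.6. NKX6-1, known from ventral progenitors, fell from 4.32 and 3.03 to 0.0485 and 0.204 CPM, OLIG2 was at 0 and NKX2-2 at 0 in both late libraries, and the floor plate factor FOXA2 was at 0.145 and 0.102. PAX2, shared with intermediate mesoderm, fell from 14.1 and 17.9 to 0.485 and 0.510 CPM. NES, an intermediate filament of progenitors, stood at 438 and 442 and at 846 and 717 CPM and was not called.

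Genes of neurons were mixed. Of 18 tested genes 11 rose and 4 fell (median 2.65). POU4F1, a factor of sensory and dorsal interneurons, was at 0 in both early libraries and at 41.1 and 38.9 CPM in the late ones, at least 135-fold higher, with 27.7% of its exonic bases shared with another gene. NEUROG2, a proneural factor, had 0.192 and 0.101 CPM early and 27.3 and 22.7 late, and DCX, a microtubule protein of migrating neurons, rose from 2.31 and 0.908 to 40.2 and 49.6. Members used by neurons in general differed among themselves. MAPT, a microtubule protein of axons, rose from 2.40 and 1.31 to 16.2 and 10.3 CPM, and SNAP25, of synaptic vesicle fusion, from 1.15 and 0.606 to 5.43 and 4.79. ELAVL3 stood at 1.06 and 2.02 CPM early and 2.86 and 2.96 late and was not called, and TUBB3 stayed between 1.83 and 3.88 CPM. SYT1, a synaptic vesicle protein, fell from 99.0 and 106 to 19.2 and 17.7 CPM, STMN2 from 25.7 and 27.8 to 3.68 and 3.97, and NHLH2 by 1.64. The motor neuron genes ISL1 and LHX3 were at or below 0.384 CPM in all 4 libraries.

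Neural crest genes showed no common direction, with 4 of 12 tested genes higher, 3 lower and a median of 0.68. SOX10, the defining factor of the migrating crest, stood at 1.63 and 1.92 CPM early and 3.20 and 3.06 late and was not called. ETS1 rose from 3.46 and 3.23 to 64.8 and 78.0 CPM and TWIST1 from 2.79 and 3.13 to 30.1 and 26.9, although both are also expressed in mesoderm. SNAI2, of crest and of mesoderm leaving the streak, fell from 183 and 181 to 27.2 and 25.9 CPM, and ERBB3 by 2.21.

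**Figure D2:**
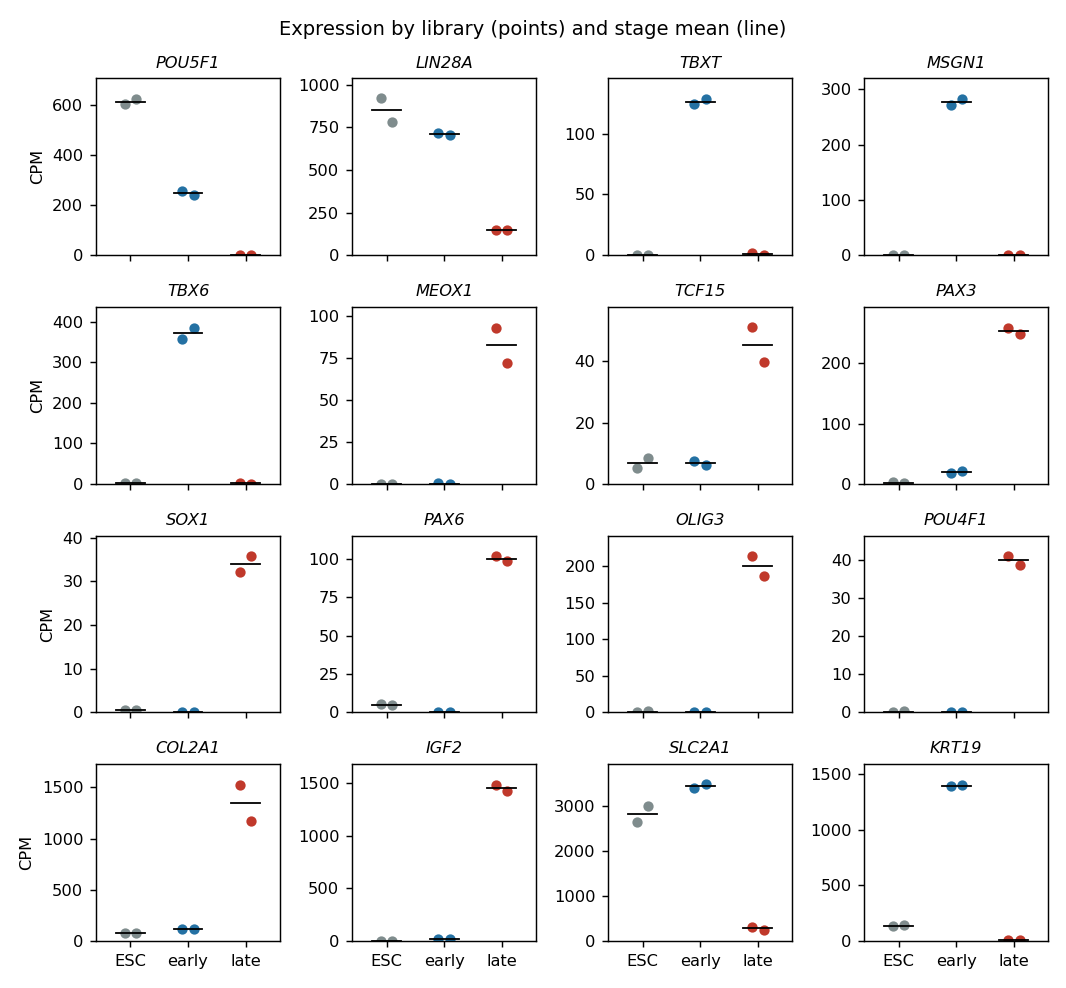
Expression in CPM (y axes, linear from 0) of 16 named genes in each library of primed RUES2-GLR ESCs, early and late RA-gastruloids (x axes); points are libraries (n = 2 per stage) and lines their means. POU5F1, TBXT, MSGN1 and TBX6 drop to below 2 CPM in the late libraries, whereas MEOX1, SOX1, PAX6, OLIG3 and POU4F1 rise from below 0.4 CPM to between 32.1 and 213 CPM.

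Of the cardiac list 10 of 20 genes passed the filter on low counts, of which 6 fell and 1 rose (median -1.91). TNNT2, cardiac troponin T, was at 0 in both late libraries, and NKX2-5, the cardiac homeobox factor, at 0.0485 and 0.204 CPM. HAND1, of lateral plate mesoderm, had 10.7 and 8.78 CPM early and 0 in both late libraries, at least 43.1-fold lower. The GATA factors GATA4 (4.23 and 4.84 to 0.145 and 0.102 CPM) and GATA6 (7.98 and 5.75 to 1.45 and 1.12) fell, as did TNNC1, by 2.35, while GATA5 rose from 0.769 and 0.606 to 3.25 and 1.94. NEBL stood at 96.7 and 95.2 and at 51.1 and 65.7 CPM and was not called.

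The 9 tested genes of intermediate mesoderm and kidney split into 4 that rose and 5 that fell (median -1.31). OSR1, an early marker of this mesoderm, fell from 14.2 and 16.1 to 5.24 and 5.20 CPM, and SALL1 from 424 and 447 to 146 and 149. EYA1, which is also used in somites, rose from 6.44 and 5.25 to 34.5 and 40.0 CPM.

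In the list of endothelium and blood 8 of 15 tested genes rose and 4 fell (median 1.60). The late levels were low: the endothelial adhesion protein PECAM1 rose from 0.192 and 0.202 to 1.75 and 1.32 CPM, CDH5 from 0.192 and 0 to 3.25 and 2.04, and LMO2 from 2.31 and 1.82 to 10.1 and 9.17. KDR, a VEGF receptor of endothelium and its mesodermal precursors, rose from 15.5 and 16.0 to 54.4 and 45.5 CPM. GATA2 fell by 1.89, and the red cell genes GATA1 and HBZ did not exceed 0.0485 CPM in any of the 4 libraries.

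Of 6 tested endoderm genes 5 fell and 1 rose (median -3.41). SOX17, of definitive endoderm and haemogenic endothelium, fell from 22.2 and 21.7 to 0.727 and 0.713 CPM (-4.91 ± 0.27 SE, edgeR adjusted p = 4.6e-16). FOXA3 fell from 19.8 and 19.9 to 0.776 and 0.815 CPM and EPCAM from 50.2 and 44.6 to 3.88 and 5.20. Among notochord and floor plate genes 4 of 5 fell and 1 rose (median -1.78). NOTO had a single count in the early libraries and none in the late ones, the BMP antagonists NOG and CHRD fell by 1.78 and 1.24, and FOXJ1, a regulator of motile cilia, rose from 0.769 and 0.908 to 28.0 and 24.1 CPM. Of 8 tested genes of surface ectoderm and amnion 7 fell and none rose (median -3.36). The keratin KRT19 fell from 1390 and 1402 to 11.9 and 8.87 CPM, while TP63, the defining factor of stratified epithelia, did not exceed 0.384 CPM.

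Since these are bulk libraries, fewer cells of a type and less RNA per cell cannot be told apart in any of the lists.

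**Figure D3:**
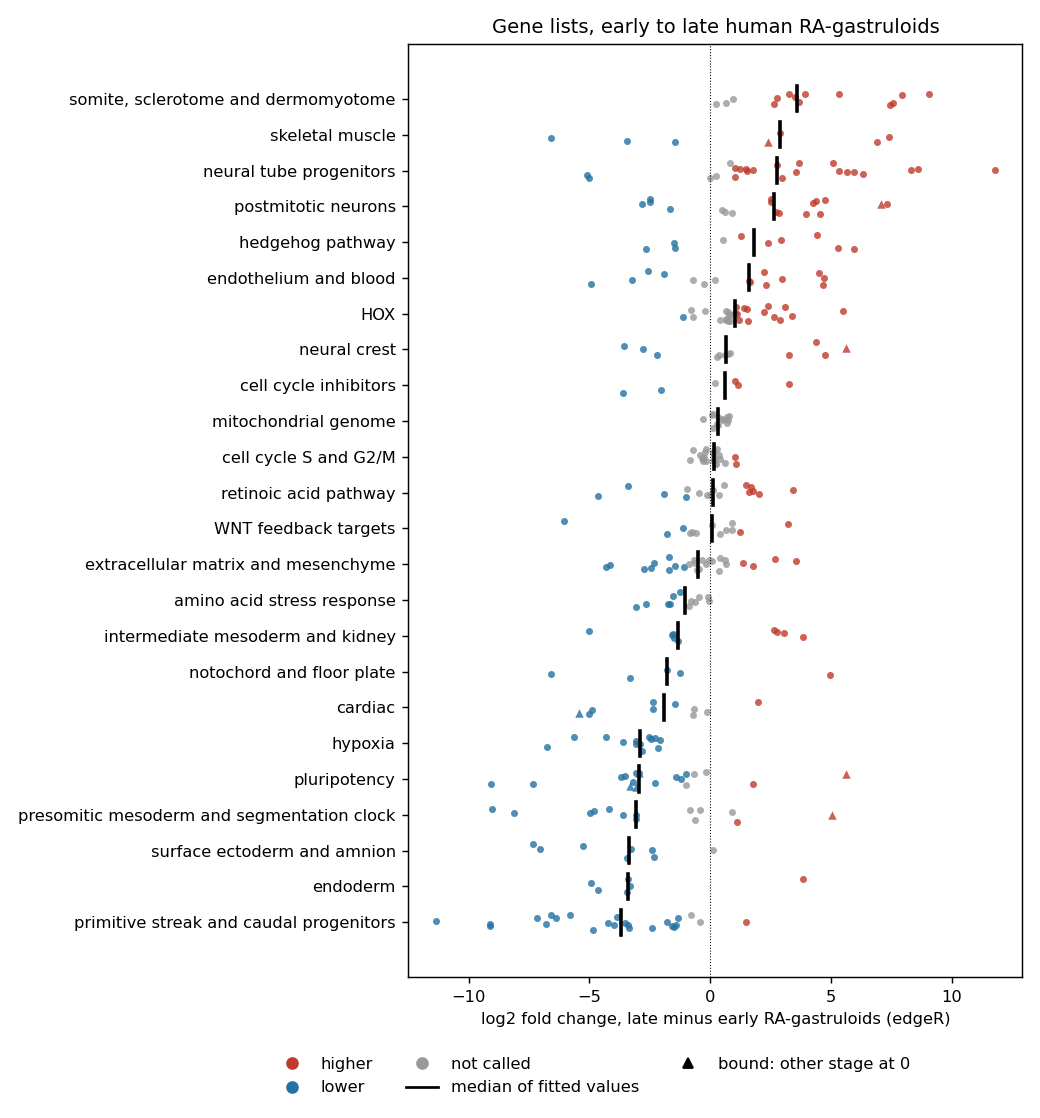
Log2 fold change between late and early RA-gastruloids (x axis) of the tested genes of the 24 gene lists (y axis, ordered by median). Red and blue points are genes called higher and lower, grey points genes not called, triangles genes with no count in 1 stage set at their bound, and black bars the medians of the fitted values, which run from -3.68 for primitive streak and caudal progenitors to 3.59 for the somite list.

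The HOX genes that were called mostly rose, and those that rose lay mainly in paralogue groups 5 to 9. HOX genes lie in clusters in the order in which they are expressed along the body axis, and paralogue groups are numbered from head to tail. Of 27 tested genes 14 rose and 1 fell (median 1.02). In groups 1 to 4, 3 of 12 rose and 1 fell (median 0.69), and in groups 5 to 9, 11 of 15 rose and none fell (median 1.56). HOXD1 fell from 19.4 and 22.7 to 11.4 and 7.24 CPM, though without late replicate 2 its change was -0.87 and was no longer called. HOXA9 rose from 0.673 and 0.606 to 30.4 and 28.8 CPM (5.52 ± 0.30 SE, edgeR adjusted p = 4.8e-16), HOXC9 from 3.46 and 5.05 to 46.1 and 42.0, and HOXA6, which shares 39% of its exonic bases with other genes, from 1.06 and 0.908 to 9.21 and 7.54. Within group 9 the B cluster moved least: HOXB9 stood at 683 and 697 CPM early and 1149 and 1055 late and was not called. Per length, the summed level of groups 5 to 9 rose from 1325 and 1371 TPM (a length-scaled level computed from the counts) to 2700 and 2513, whereas that of groups 1 to 4 was 1055 and 1146 early and 1112 and 1009 late. Most of the level of groups 5 to 9 was HOXB9, which was not called, at a mean of 1041 TPM early and 1708 late. None of the 12 genes of groups 10 to 13 passed the filter, and none exceeded 1.15 CPM in any of the 4 libraries. Neighbouring HOX genes share transcripts and overlapping reads were not assigned, so that single values are less certain than for isolated genes.

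**Figure D4:**
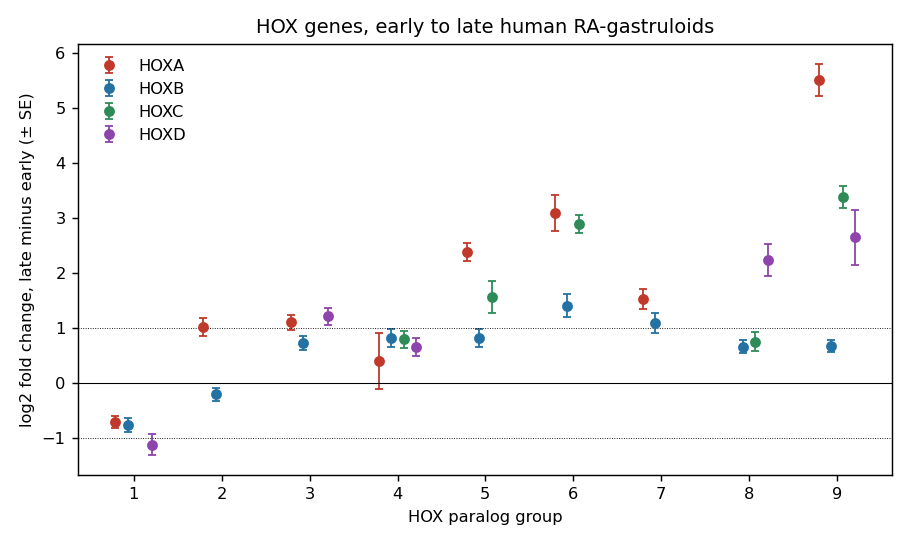
Log2 fold change between late and early RA-gastruloids (y axis, ± SE from edgeR, 2 libraries per stage) of the 27 tested HOX genes by paralogue group (x axis), coloured by cluster; dotted lines mark changes of 1. Group 1 genes lie below 0, and groups 5 to 9 lie between 0.66 and 5.52.

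Genes of the RA pathway moved in both directions. Of 17 tested genes 6 rose and 4 fell (median 0.13). Among receptors, RARB rose from 2.40 and 2.52 to 26.4 and 27.4 CPM (3.44 ± 0.21 SE, edgeR adjusted p = 3.6e-15) and RARA, which shares 21.4% of its exonic bases with other genes, from 13.1 and 15.6 to 56.6 and 42.0, while RARG fell from 128 and 122 to 37.1 and 28.6 and RXRG from 14.3 and 15.3 to 1.31 and 1.53. ALDH1A2, the RA-synthesising enzyme of somites, rose from 35.9 and 35.3 to 116 and 118 CPM, and so did the retinaldehyde reductase DHRS3, from 15.4 and 13.4 to 65.6 and 50.8. STRA6, the receptor for retinol import, had 230 and 220 CPM early and 126 and 98.5 late, a call right at the size threshold that 6 of the alternatives did not make. CRABP2, which carries RA to the nucleus, stood at 1236 and 1204 CPM early and at 1364 and 1086 late.

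RARB, CYP26A1 and STRA6 are shown by their promoters because they were the members whose 300-base RefSeq promoter (250 bases before and 50 after the start site, GRCh38.p14) held a direct repeat of NGNTCA with 5 bases between the copies, the spacing to which RA receptors are known to bind. Of the 18 listed genes 16 had a promoter in the RefSeq table, 31 promoters in all, and 3 genes held this repeat on either strand. Of all 35116 promoters 0.723% held it, a share of promoters and not of genes. The repeat with 2 bases between the copies was in none of them and in 0.675% of all promoters. A match of letters is not a bound site, and of the genes with it RARB and CYP26A1 rose while STRA6 was the call at the threshold. The sequences read 5′ to 3′ on the strand of the gene, with both copies in capitals. They are RARB at chr3:25428013-25428312 (plus strand), CYP26A1 at chr10:93073643-93073942 (plus strand, repeat on the opposite strand) and STRA6 at chr15:74212210-74212509 (minus strand, repeat on the opposite strand of the gene).
RARB: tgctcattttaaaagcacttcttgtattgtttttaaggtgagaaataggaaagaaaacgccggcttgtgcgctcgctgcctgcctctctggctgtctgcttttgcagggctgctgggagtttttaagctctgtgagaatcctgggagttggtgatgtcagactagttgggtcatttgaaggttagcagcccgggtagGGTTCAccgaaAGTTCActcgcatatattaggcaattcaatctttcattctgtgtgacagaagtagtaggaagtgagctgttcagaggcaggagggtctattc
CYP26A1: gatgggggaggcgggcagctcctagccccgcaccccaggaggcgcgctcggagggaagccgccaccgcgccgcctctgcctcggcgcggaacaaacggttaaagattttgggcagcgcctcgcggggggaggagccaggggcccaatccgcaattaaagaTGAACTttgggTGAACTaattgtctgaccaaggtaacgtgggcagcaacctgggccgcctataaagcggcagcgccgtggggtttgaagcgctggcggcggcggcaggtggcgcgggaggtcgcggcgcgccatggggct
STRA6: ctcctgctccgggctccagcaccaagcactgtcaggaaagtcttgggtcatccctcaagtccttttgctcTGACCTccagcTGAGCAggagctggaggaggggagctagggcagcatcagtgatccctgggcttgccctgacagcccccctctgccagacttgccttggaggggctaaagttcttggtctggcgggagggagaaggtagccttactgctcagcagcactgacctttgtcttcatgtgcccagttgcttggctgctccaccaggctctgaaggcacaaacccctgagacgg

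Of 13 tested WNT feedback targets 2 rose and 3 fell (median 0.09), where 13.0% of all genes were higher and 13.1% lower, so that the share of rises was near that of all genes. AXIN2, a negative regulator induced by WNT in most tissues, stood at 40.3 and 42.9 CPM early and at 62.8 and 67.8 late, a change of 0.65 that did not pass the size threshold, with 25.3% of its exonic bases shared. MYC rose from 8.94 and 8.78 to 87.7 and 79.6 CPM and the R-spondin receptor LGR5 from 2.50 and 1.82 to 4.85 and 5.50, a call that DESeq2 did not make (adjusted p = 0.055, against 0.0011 by edgeR). LEF1, the transcription factor that WNT acts through, fell from 221 and 227 to 96.1 and 108 CPM, and SP5, a repressor induced by WNT, from 217 and 218 to 69.1 and 54.6. SP5 was the only gene of the 6 with a promoter in the RefSeq table (9 promoters in all) that held the TCF/LEF motif CTTTGAT on either strand, which 2.62% of all promoters hold. Its promoter, chr2:170715087-170715386 (plus strand), is shown with the motif in capitals.
SP5: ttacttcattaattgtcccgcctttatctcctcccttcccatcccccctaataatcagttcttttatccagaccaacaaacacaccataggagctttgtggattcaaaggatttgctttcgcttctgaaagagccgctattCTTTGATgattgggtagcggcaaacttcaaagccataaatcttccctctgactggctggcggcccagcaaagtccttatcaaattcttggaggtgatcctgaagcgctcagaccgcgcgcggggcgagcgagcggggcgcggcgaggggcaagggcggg

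In the hedgehog pathway 6 of 10 tested genes rose and 3 fell (median 1.84). The transducing receptor SMO rose from 100.03 and 102.6 to 271 and 214 CPM. Co-receptors rose, with GAS1 from 15.1 and 14.2 to 612 and 553 CPM, BOC from 13.9 and 8.78 to 283 and 207, and so did HHIP, a pathway target that binds the ligands, from 0.961 and 0.303 to 40.1 and 40.0. PTCH1, receptor and target of the pathway, fell from 203 and 220 to 82.3 and 72.4 CPM (-1.45 ± 0.11 SE, edgeR adjusted p = 1.8e-12), and GLI1, its other common target, from 9.80 and 11.5 to 1.65 and 1.73. The ligand SHH did not exceed 0.194 CPM in any of the 4 libraries.

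Of 26 tested matrix genes 4 were higher and 9 lower (median -0.48), where 13.0% of all genes were higher and 13.1% lower, so that the share of rises was near that of all genes. COL2A1, the fibrillar collagen of cartilage and notochord sheath, rose from 117 and 113 to 1528 and 1169 CPM, COL6A3 from 8.84 and 8.07 to 61.1 and 48.6 and COL3A1 from 33.7 and 39.2 to 96.1 and 88.8. COL1A1 fell from 484 and 442 to 28.7 and 22.2 CPM, COL6A2 from 143 and 162 to 26.8 and 17.9 and COL9A3 from 24.5 and 24.3 to 1.26 and 1.12. COL1A2, the partner chain of COL1A1, stood at 540 and 510 CPM early and at 558 and 470 late.

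Hypoxia genes fell without exception among those tested, 13 of 13, with a median of -2.90, and their sum fell from 9236 and 9405 to 1479 and 1407 CPM. The glucose transporter SLC2A1 fell from 3381 and 3467 to 307 and 246 CPM, the vasodilator ADM from 114 and 112 to 2.38 and 2.04, ANGPTL4 from 65.5 and 69.8 to 0.533 and 0.815 and NDRG1 from 194 and 198 to 9.89 and 9.89. Their summed level in the primed ESCs was 5558 CPM, between the stages. CA9 was too low to be tested. Of 12 tested genes of the amino acid stress response 6 fell and none rose (median -1.04). DDIT4, an mTOR inhibitor induced by hypoxia as well as stress, fell from 1943 and 1916 to 257 and 199 CPM, ATF3 by 2.67 and MTHFD2 by 1.73.

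Of 24 tested cell cycle genes 2 rose and none fell (median 0.15), where 13.0% of all genes were higher and 13.1% lower. The share of rises was thus near that of all genes. MKI67 stood at 68.1 and 112 CPM early and at 224 and 154 late and CENPF at 200 and 240 against 438 and 464. Neither was called without early replicate 1, with changes of 0.76 and 0.91, and MKI67 was not called without late replicate 1 either (0.78). TOP2A stood at 578 and 601 and at 673 and 771 CPM. Of 6 tested inhibitors 3 rose and 2 fell (median 0.62). CDKN1A, the p53 target p21, fell from 109 and 114 to 8.82 and 9.89 CPM and BTG2, another p53 target, from 98.1 and 101 to 23.7 and 24.7. GADD45G rose by 3.29, and CDKN1C and CDKN2D by 1.04 and 1.17, both of which were not called without late replicate 1. None of the 13 genes of the mitochondrial genome was called (median 0.33), though mitochondrial RNAs were among the largest gains and losses in CPM, with MT-CO1 at 9177 and 9306 early and 9908 and 12330 late, MT-CYB higher by 0.75 and MT-RNR2 at 15572 and 15200 early and 9790 and 13767 late. The late replicates differed in the sum of the 13 genes, at 35608 and 45252 CPM.

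Among genes with more than 3 counts in a library of the lower stage, the 10 largest falls included, outside the lists, those of NTS, which encodes the neuropeptide neurotensin, from 533 and 527 to 0.582 and 0.815 CPM (-9.63 ± 0.19 SE, edgeR adjusted p = 8.6e-27), of BHLHE40, a bHLH repressor induced by hypoxia, from 148 and 169 to 0.630 and 1.12, and of the pseudogene PPIAP46, whose reads can be shared with its parent family. The 10 largest rises among genes with more than 3 counts in an early library included, besides WNT1, CDH15, LMX1A and IGF2-AS, those of NR2F2 (chr15:96325938-96340263), a nuclear receptor induced by RA, from 0.769 and 0.606 to 220 and 230 CPM (8.33 ± 0.22 SE, edgeR adjusted p = 1.7e-23), SCUBE2, which releases hedgehog ligands, from 0.577 and 0.606 to 174 and 161, the potassium channel KCNK2 from 0.384 and 0 to 38.9 and 40.0, the ligand WNT16 from 0.480 and 0 to 28.9 and 29.4, and PCDH15 and FAP, by 6.74 and 6.48. The largest gain in CPM outside the mitochondrial genome was that of IGF2 (chr11:2129112-2158391), a fetal growth factor, from 21.5 and 22.1 to 1484 and 1431 CPM, and its antisense gene IGF2-AS rose from 0.577 and 0.404 to 59.6 and 42.3, 2 genes whose reads cannot be told apart in part because strand was not used. The largest losses outside the mitochondrial genome were those of the glycolytic enzyme ENO1 (5832 and 5726 to 2411 and 1970 CPM), SLC2A1, the glucose transporter SLC2A3 (2558 and 2584 to 79.3 and 88.3) and the poly(A)-binding protein PABPC1, which did not pass the size threshold (-0.88).

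Some genes went from at most 3 counts in either library of a stage to at least 10 CPM in both of the other. There were 22 such genes that were switched on and 24 that were switched off. The most abundant of those switched on were NR2F1 (chr5:93583222-93594611), the paralogue of NR2F2, at 219 and 193 CPM late, then OLIG3, PAX6, MEOX1 and POU4F1. The others included SOX1, the neuronal transcription factor EBF3 (20.4 and 21.1 CPM late), the somite factor SIM1 (23.1 and 32.1), the dorsal progenitor factor PRDM13 (21.5 and 15.4) and the lymphatic growth factor VEGFD (27.8 and 29.5). Those switched off were led by the unnamed gene ENSG00000260834 (155 and 163 CPM early), FGF4, FGF3 (30.4 and 28.4 early and 0 late, at least 130-fold lower), ENSG00000282048 and the microvillus gene VIL1 (19.1 and 17.4 early and 0 late, at least 80.9-fold lower, with 44.2% of its exonic bases shared with another gene). Epithelial genes were among them, with CDH1, the epithelial splicing regulator ESRP1 (16.6 and 17.0 CPM early, 0 late) and the keratinocyte kinase RIPK4 (11.6 and 13.5 early).

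The early to late change was set against that of mouse gastruloids, aggregates of E14Tg2a ESCs given a pulse of CHIR and no RA, over genes matched by symbol. Times, protocols and annotations differ, so that species cannot be told apart from these. The test of the difference (edgeR interaction, 14008 genes) called 2333 genes (16.7%) whose change was higher in human and 2621 (18.7%) whose change was lower. Of 19 cardiac genes 18 changed lower in human and none higher (medians -2.34 in human and 4.77 in mouse), and of 12 endoderm genes 10 changed lower and none higher (-3.33 and 4.70). Counts and medians by list here include genes with at most 3 counts in a group, such as HAND2, TNNT2, AFP and TTR. Their fitted changes rest on few counts or none in that group, and of the 20 cardiac genes only 10 passed the filter in human. In mouse, GATA6 rose from 0.878 and 0.445 to 167 and 163 CPM and TNNT2 was at 45.4 and 45.9 CPM late. Scaled together with the mouse libraries, the human late libraries had 1.58 and 1.29 CPM of GATA6 and 0 of TNNT2. Of 29 matrix genes 25 changed lower in human and none higher, and COL1A1 rose by 5.55 in mouse. Of 36 HOX genes 26 changed lower in human and none higher (medians 0.82 and 5.55), with HOX genes summing to 1559 and 1633 CPM in early RA-gastruloids already. Many of these HOX genes had at most 3 counts in a group. HOXA2, HOXA5, HOXB2 and HOXB5 were at 0 in early mouse gastruloids, and HOXA11, HOXA13 and HOXC11 at 0 in late RA-gastruloids. The HOX medians therefore include fitted changes that are not measured sizes. Of 27 neural tube genes 13 changed higher and 7 lower (2.23 and 1.13), and of 14 presomitic genes 9 changed lower and 1 higher. MEOX1 rose in both, to 131 and 128 CPM in mouse, with no called difference.

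**Figure D5:**
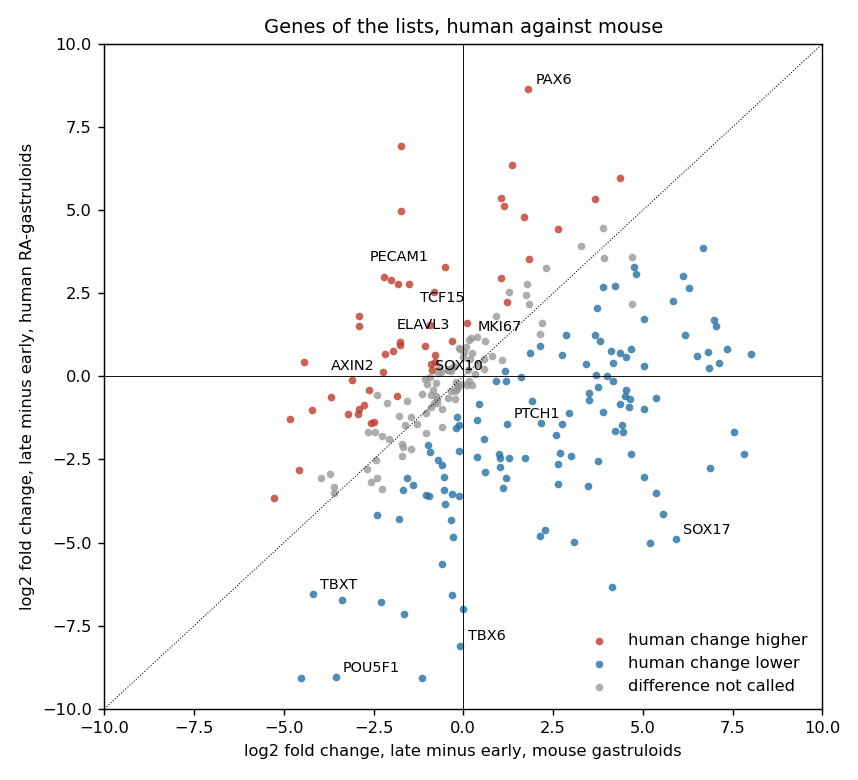
Log2 fold change between late and early stages in human RA-gastruloids (y axis) against mouse gastruloids (x axis) for genes of the 24 lists with more than 3 counts in each of the 4 groups, summed over its 2 libraries; colours give the edgeR call of the difference, names mark defining genes, and the dotted line marks equal change. SOX17 lies at -4.90 in human and 5.92 in mouse, and PAX6 at 8.64 and 1.80.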

How the data were processed

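Per the methods and the submitters' notes, polyadenylated RNA was sequenced in paired reads of either of 2 lengths, trimmed (Trimmomatic 0.39), aligned to GRCh38 (STAR) and counted per gene (featureCounts, default settings, so without strand and without reads that overlap several genes or map to several places). The annotation release is not given in the sources used here. The deposited values were raw counts per gene, and the authors' normalisation was not used. Genes were named and placed by the count table and GENCODE.

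All 10 human libraries (5 groups of 2) were fitted together in edgeR 4.0.16 (R 4.3.3; TMM scaling, filterByExpr, quasi-likelihood test), which tested 18300 genes. Adjusted p-values were taken over these, and the 14966 that also passed the filter on the 4 RA-gastruloid libraries were counted. The common biological coefficient of variation was 8.18%. GC content came from GENCODE v44 transcripts and promoters from RefSeq. Fold changes are given as log2, with standard errors from the fitted coefficients. Where a stage had no count, a bound was computed against 3 counts per library, and where it had 1 to 3 counts, a ratio with its exact 95% counting interval. The limits and intervals cover counting error only. The replicates were stated to be biological, with n = 2 per stage. Tested on simulated data for the early to late comparison (18300 genes, 100 changed 2-fold and 100 changed 4-fold), edgeR recovered 98 and 100 with 7 false calls, and for the comparison with mouse (14008 genes) it recovered 82 and 100 with 10. A recovery or false call was scored at an adjusted p under 0.05 alone, without the size threshold of the DETs. The simulated libraries held no GC trend and few changed genes, so these numbers do not give the error of the DETs reported here.

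The genes and the 24 lists were chosen with earlier results of these data known. Named were the 10 largest rises and falls with at least 10 CPM in the higher stage, the 5 largest gains and losses in CPM, the 5 most abundant switched genes, up to 3 rises and falls per list with at least 5 CPM plus its most abundant gene, defining markers and the 10 genes that differed most between replicates. Other members were named after their values were seen. DESeq2 1.42.0 and other filters, scalings, blocks and left-out libraries were alternatives. Some members of the lists are counted but not reported by name here.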

Additional observations from a re-analysis of the deposited data

Results flagged for a closer look

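The early to late change of defining genes differed between human RA-gastruloids and mouse gastruloids in 10 cases with more than 3 counts in every group, summed over its 2 libraries, by the edgeR interaction test at an adjusted p under 0.05 and a difference over 1 on the log2 scale. Differences are human minus mouse. They were largest for the endoderm gene SOX17, at -10.82 ± 0.37 (SE), which fell by 4.90 in human and rose by 5.92 in mouse, from 0.413 and 0.445 to 25.8 and 26.8 CPM. For PAX6, with 5 early human counts, the difference was 6.84 ± 0.44, and it rose by 1.80 in mouse, to 11.1 and 9.17 CPM. For TBX6 it was -8.02 ± 1.22, where mouse levels were below 0.6 CPM in all 4 libraries, so that this difference rests on the human fall. For the endothelial gene PECAM1, with 4 early human counts, it was 5.19, with a fall from 133 and 126 to 27.5 and 28.6 CPM in mouse. For TCF15 it was 4.28, with a fall from 33.1 and 32.0 to 11.1 and 11.9 CPM in mouse. Of the signalling genes, AXIN2 gave 2.86, with a fall by 2.19 in mouse, and PTCH1 gave -2.63, with a rise of 1.20 in mouse. POU5F1 fell in both species, with a difference of -5.48 and 81.7 and 79.6 CPM left in late mouse gastruloids, and TBXT fell in both, with -2.37. ELAVL3 gave 2.70 at levels below 5 CPM in both species. Human and mouse groups differ in protocol, time and annotation, which cannot be told apart here. SOX10 and MKI67 showed no called difference, nor did MEOX1, which had at most 3 counts in a group. RARB, SOX1, MYOG, NKX2-5, TNNT2, OSR1 and COL3A1 were called but had at most 3 counts in a group, and are described by level only: OSR1 was at 46.0 and 48.1 CPM in late mouse gastruloids and COL3A1 at 309 and 343.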

How the results depend on the processing

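Under the other scalings (DESeq2 size factors, upper quartile), with DESeq2, with only the 4 RA-gastruloid libraries and with GC offsets, the counts of DETs stayed within 1.5 times, between 3579 and 3933 against 3915. Leaving out 1 library gave 3738 to 3944. Of 154 named genes, none reversed and 12 changed their call under at least 1 alternative. The replicate block gave 3866 DETs over all human libraries and 3874 over the 4 RA-gastruloid libraries. The numbers are not known to pair libraries, and deviations of same-numbered libraries correlated at -0.06 across genes. Without a filter, 4 HOX, 5 muscle and 11 cardiac genes were lower, 1 surface ectoderm gene was higher, and the replicate distances were 146 (early) and 92.6 (late). Requiring 10 counts in each library, which by construction removes genes low in 1 stage, left 2479 DETs (1274 higher, 1205 lower). Then pluripotency had 1 higher and 6 lower, presomitic mesoderm 1 and 5, neural tube 10 and 0, muscle 0 and 1, cardiac 0 and 2, intermediate mesoderm 2 and 2, endothelium 2 and 0 and notochord 0 and 2. It also left 13 lower in the streak list, 2 in RA, 2 in endoderm and 4 in surface ectoderm, and 2 higher in neurons, 2 in crest and 6 in somite. DESeq2 called 1 WNT target higher (LGR5 was lost). Without the size threshold there were 8870 DETs (4609 higher, 4261 lower), with 5 and 6 in WNT, 22 and 3 in HOX, 8 and 15 in matrix, 5 and 5 in cell cycle, 9 and 1 in the mitochondrial genome, 7 higher in crest and 10 lower in amino acid stress, and 8307 differences from mouse (4298 higher, 4009 lower). Switched genes numbered 34 on and 40 off at 5 CPM, and 52 and 78 with under 1 CPM counted as off. On leaving out 1 library, cell cycle genes higher ranged from 0 to 2, inhibitors higher from 1 to 3 and HOX genes lower from 0 to 1. The cause of changes not given by construction was not tested. Depth limits genes under 3 counts per library, and 2 replicates per stage limit all tests.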

Other observations

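Of 3 further gene groups, put together after the data were seen, the first was glycolysis: 15 of 19 tested genes fell and none rose (median -2.02), beside a background of 13.1% of all genes lower. HK2 fell from 533 and 543 to 73.9 and 73.5 CPM and ENO2 from 242 and 251 to 33.8 and 26.5, whereas GAPDH stood at 3671 and 3972 early and 2677 and 2126 late and was not called. The second was the WNT ligands, of which 7 of 13 tested rose and 3 fell. Those that fell, WNT8A, WNT5A (399 and 423 to 33.8 and 37.9 CPM) and WNT5B (181 and 182 to 13.8 and 11.0), are ligands of the streak and tail bud, and those that rose besides WNT1 and WNT16 included WNT4 (1.44 and 2.02 to 23.6 and 17.6) and WNT7B (0.865 and 0.706 to 11.3 and 8.97). Their sum fell from 1369 and 1435 to 314 and 263 CPM. The third was the FGF ligands, of which 7 of 12 tested fell and none rose, with FGF19 going from 35.9 and 41.9 to 1.02 and 0.204 CPM, while FGF13 stood at 53.2 and 48.5 and at 64.4 and 59.3.

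Imprinted genes, also put together afterwards, had 6 of 17 tested higher and 3 lower, beside 13.0% and 13.1% of all genes, so that the share of falls was near that of all genes. The genes that follow are given as single values. Besides IGF2 and CDKN1C, NNAT rose from 105 and 112 to 360 and 306 CPM, NDN from 45.4 and 43.7 to 133 and 104 and PLAGL1 from 12.9 and 13.9 to 42.7 and 42.8. MEST fell from 1513 and 1561 to 494 and 503 CPM and PHLDA2 from 12.7 and 13.6 to 0.0970 and 0.102. H19, the non-coding neighbour of IGF2, reached 0.582 and 1.02 CPM.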
